A study of Panax japonicus with 5 samples.

Results

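The flower of Panax japonicus was set against its underground tissues, the young rhizome (rhizome_Y), the old rhizome (rhizome_O, labelled rhizome_old) and the secondary root (secRoot). A unigene is here 1 Trinity gene, and its count and FPKM (fragments scaled to contig length and library size) are sums over its contigs. Of 135235 unigenes, 14112 had at least 50 counts in any of the 4 libraries, and 9950 of these lay on the same side of all 3 underground libraries: 4514 were higher in flower than in each of them (32.0% of the 14112) and 5436 were lower (38.5%). A unigene was called where flower differed at least 2-fold from the underground mean FPKM and lay on the same side of each of the 3. By this rule 1815 unigenes were higher in flower (12.9%) and 2543 were lower (18.0%).

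All tissues came from 1 plant, 7 years old, that grew outdoors in a medicinal plant garden and received no treatment. The young rhizome was taken at the first bud scar below the stem and the old rhizome at the sixth, in another place of the source at the sixth and the seventh. There was 1 library per tissue, so no difference has a replicate check, no test was made, and the intervals of count ratios below cover counting error only. Intervals of list medians come from the ranked values of a list's unigenes, taken as independent. Unigenes are not replicates of a tissue, and some may be pieces of 1 transcript, so these intervals describe the spread within a list. Since the RNA is that of whole tissues, fewer cells of a type and less RNA per cell cannot be told apart. Whether the flower sample held petals, stamens, pistils or stalks in given amounts is not stated in the sources used here. No enzyme row used here names a floral identity gene or a pollen gene, so the label was compared only with photosynthesis enzymes. These were taken as markers of green tissue, and they do not identify a flower.

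A flower takes up carbon as sucrose from the rest of the plant and carries out cell expansion, wall loosening, pigment formation and, in the anthers, pollen development, while rhizomes and roots lay down lignified walls and store starch. Ethylene, a gaseous hormone of flower opening and senescence, is made from S-adenosylmethionine by ACC synthase and ACC oxidase. S-adenosylmethionine is also the methyl donor for lignin precursors, pectin and many small molecules, and the methyl cycle remakes it from homocysteine.

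Library totals were 2403221 counts for flower, 2836971 for rhizome_Y, 3382436 for rhizome_O and 4920387 for secRoot, and the tested unigenes took 89.5% to 92.1% of each. Leaf was left out, and the same unigenes took 3.88% of its 4614642 counts. Functions come from 754 enzymes in the annotation table of the study, which cover 5179 unigenes. Of these, 1108 were tested, 146 were called higher in flower (13.2%) and 225 lower (20.3%). Longer rows of that table are shortened to at most 22 contigs in the copy used, so a count of unigenes per enzyme is a count of the contigs listed and not of a gene family. Short unigenes of 1 enzyme may be pieces of 1 transcript, and reads of near-identical copies may have been divided among them.

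The unigenes called higher took 29.2% of the counts in flower, against 6.46% in rhizome_Y, 7.06% in rhizome_O and 5.27% in secRoot. Those called lower took 6.69% of the counts in flower, against 27.4%, 26.2% and 31.0% in rhizome_Y, rhizome_O and secRoot. The calls covered more than 25% of the counts on the high side in both directions, while the smaller share on the other side follows from the rule. Of the unigenes called lower, 1492 (58.7%) were highest in secRoot, 543 in rhizome_Y and 508 in rhizome_O. At 4-fold, 861 unigenes were higher (6.10%) and 1191 lower (8.44%). Of the 2-fold calls, 1763 higher (12.5% of tested) and 1903 lower (13.5%) also had a 95% interval of the count ratio beyond 1 against each underground library. The remaining 9754 unigenes (69.1%) were called in neither direction, and flower lay within 2-fold of rhizome_Y for 68.6%, of rhizome_O for 67.8% and of secRoot for 60.8% of tested unigenes. Pairs of underground tissues lay within 2-fold of each other for 80.0% to 85.6%.

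**Figure D1:**
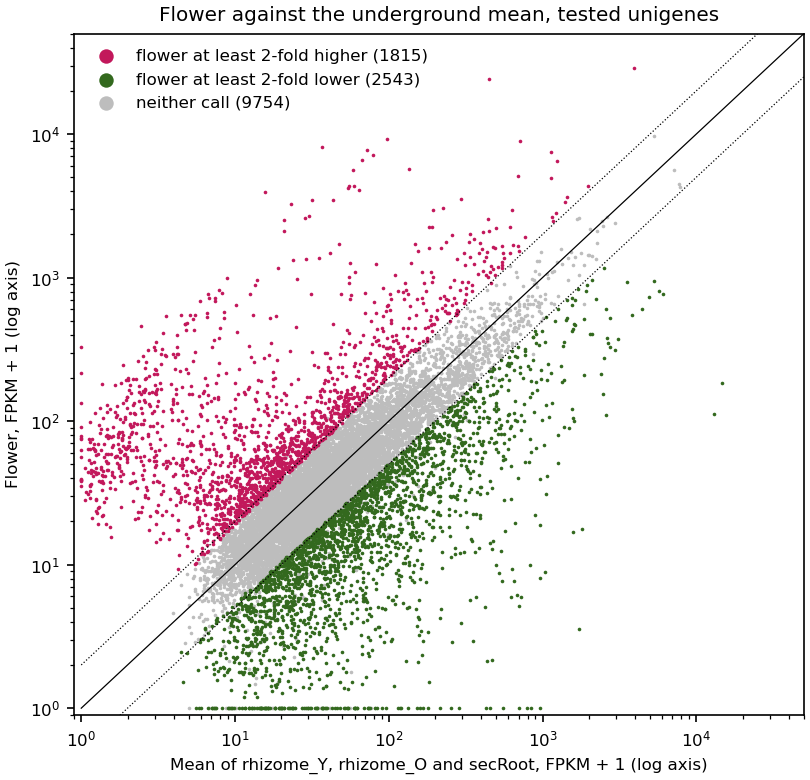
FPKM + 1 in flower (vertical axis) against the mean FPKM + 1 of rhizome_Y, rhizome_O and secRoot (horizontal axis), both on log axes, 1 point per tested unigene; solid line equality, dotted lines 2-fold. The 1815 unigenes called higher reach far above the upper line at low underground values, and the 2543 called lower include unigenes at 0 in flower, drawn along the bottom edge.

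Ranked by the ratio with 1 FPKM added, which keeps low values from leading, an ACC oxidase came first among unigenes with an enzyme row. The enzyme carries out the last step of ethylene synthesis. TR32355|c0_g1 had FPKM 2527 in flower, against 13.2 in rhizome_Y, 35.6 in rhizome_O and 11 in secRoot. It was 127-fold above the underground mean and 70.9-fold above rhizome_O, the nearest library (95% interval 49.2 to 106). L-ascorbate oxidase (TR54720|c0_g1), a copper enzyme of the cell wall that oxidizes vitamin C, had 717 in flower, against 3.34, 10.5 and 3.44 in rhizome_Y, rhizome_O and secRoot, a 125-fold difference from their mean. Ribulose-bisphosphate carboxylase (TR32787|c0_g1), which fixes carbon dioxide, had 955 in flower, against 4.34, 30.7 and 3.61 in the same order of tissues. For all 3 of these unigenes, rhizome_O was the highest underground library.

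Jasmonate O-methyltransferase (TR52822|c0_g1), which makes the volatile methyl jasmonate, had FPKM 228 in flower, against 0.67 in rhizome_Y, 7.02 in rhizome_O and 1.55 in secRoot, 74.1-fold above their mean. Protochlorophyllide reductase (TR38661|c0_g1), a step of chlorophyll synthesis, had 167 in flower, against 1.88, 3.95 and 0.54. Adenine phosphoribosyltransferase (TR50854|c0_g1), which recycles adenine and also acts on cytokinin bases, had 328 in flower, against 4.42, 8.84 and 4.96. These enzymes belong to different pathways, and each was above 100 in flower and below 10 in every underground library. A proton-exporting ATPase of the plasma membrane (TR61625|c2_g1) had 43.0 in flower from 125 counts, against 0, 0.20 and 0.13 in rhizome_Y, rhizome_O and secRoot, where it had 0, 1 and 1 counts. Its ratio to rhizome_O was 215, with an interval of 37.9 to 8550 that shows how little the single count fixes.

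Unigenes abundant in flower were counted in every other library at a low level that differed between libraries. Of 39 unigenes with at least 1000 counts in flower and at least 20-fold above the underground mean, the count in rhizome_O was a median 2.67% of the flower count (range 1.08% to 7.26%). It was 0.723% in rhizome_Y, 0.849% in secRoot and 0.911% in leaf. Rhizome_O was the highest underground library for 35 of the 39, and all 39 had more than 3 counts in rhizome_O, secRoot and leaf. In the other direction, 38 unigenes with at least 1000 counts in an underground library and at least 20-fold above flower had a median flower count of 0.610% of the highest underground count. The part of these low counts in the ratios was not tested. Against rhizome_Y and secRoot alone, 1937 unigenes were called higher in flower and 2698 lower.

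**Figure D2:**
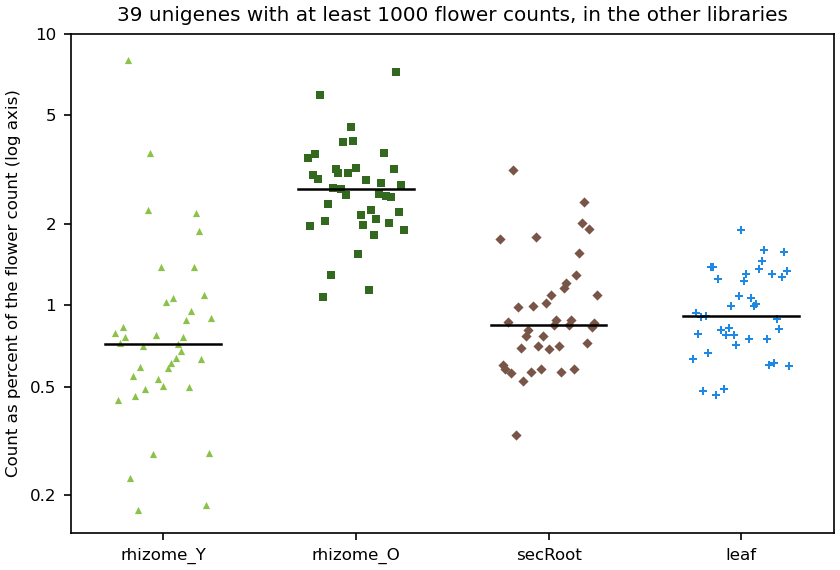
Counts of 39 unigenes (at least 1000 counts in flower, at least 20-fold above the underground mean) in rhizome_Y, rhizome_O, secRoot and leaf, as a percent of each unigene's flower count on a log axis; the black line is the median. The median is 2.67% in rhizome_O and 0.723% to 0.911% in the other 3 libraries.

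**Figure D3:**
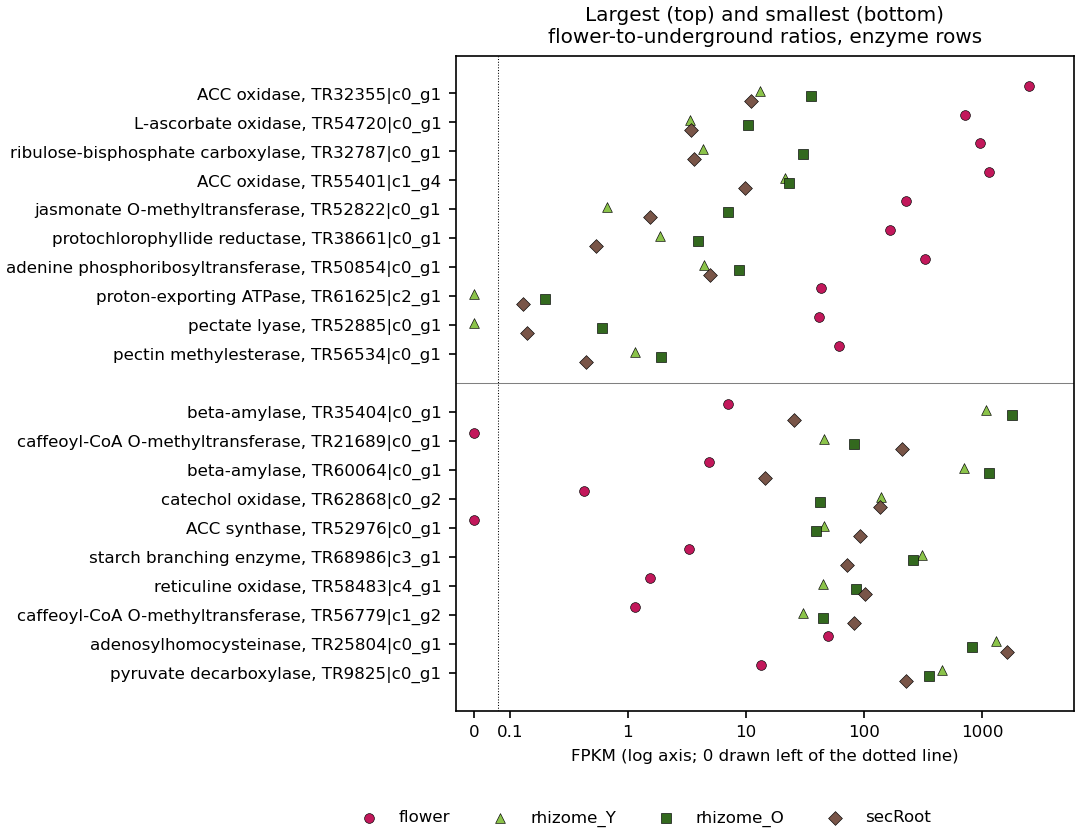
FPKM on a log axis in flower, rhizome_Y, rhizome_O and secRoot for the 10 unigenes with the largest (top) and the 10 with the smallest (bottom) ratio of flower to the underground mean with 1 FPKM added, among called unigenes with an enzyme row and at least 100 counts on the high side; values of 0 are drawn left of the dotted line. Flower lies above (top) or below (bottom) all 3 underground libraries in each row. For the 2 beta-amylases flower and secRoot lie near each other, far below both rhizomes.

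Ethylene synthesis was split between its steps. Of 6 tested ACC oxidase unigenes, 3 were called higher in flower and 0 lower, and the FPKM of all unigenes its row lists added up to 7681 in flower, against 1001 in rhizome_Y, 730 in rhizome_O and 683 in secRoot. TR55401|c2_g1, the most abundant, had 3530 in flower, against 386, 241 and 253, and TR55401|c1_g4 had 1158, against 21.3, 23.2 and 9.84. With the most abundant contig of TR55401|c2_g1 in place of the sum over its contigs, its ratio to the underground mean was 97.6 and not 12.02. ACC synthase, the step before ACC oxidase and usually the limiting one, had no count in flower for 2 of its 3 tested unigenes. TR52976|c0_g1 had FPKM 0 in flower, against 46.0, 39.0 and 92.9 from 165, 184 and 637 counts in rhizome_Y, rhizome_O and secRoot, and was at least 79.1-fold lower in flower than the underground mean, with 3 counts allowed to flower. TR61673|c0_g1 had 0 in flower, against 11.6, 21.4 and 2.73. The remaining ACC synthase unigene was not called, and the enzyme's FPKM added up to 87.1 in flower, against 132, 155 and 165 in rhizome_Y, rhizome_O and secRoot.

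S-adenosylmethionine synthetase, which makes the substrate of ACC synthase and of most methyltransferases, was called lower in flower in all 9 of its tested unigenes, 7 of them beyond counting error against each library. The most abundant, TR60451|c5_g1, had FPKM 607 in flower, against 1854 in rhizome_Y, 2160 in rhizome_O and 3786 in secRoot, 4.29-fold below the underground mean and 3.06-fold below rhizome_Y (interval 2.88 to 3.25). TR38937|c0_g1 had 288 in flower, against 676, 739 and 906 in the same order. Over the unigenes listed, FPKM added up to 1825 in flower, against 4547, 4806 and 8242. All sums below ground were more than 2-fold above flower, and secRoot had the highest.

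The enzymes that remake S-adenosylmethionine were lower in flower as well. This set was put together after the values were seen and is given as a description. Adenosylhomocysteinase, which cleaves the product of every methyl transfer, had 4 of 5 tested unigenes called lower, with a summed FPKM of 988 in flower, against 7468 in rhizome_Y, 5095 in rhizome_O and 9184 in secRoot. Its TR25804|c0_g1 had 50 in flower, against 1314, 824 and 1620, 25.1-fold below their mean. Adenosine kinase, which removes the adenosine released, had 5 of 6 called lower. Cobalamin-independent methionine synthase, which methylates homocysteine, had 4 of 4 called lower, with sums of 584 in flower, against 3825, 3652 and 5280 in rhizome_Y, rhizome_O and secRoot.

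Methylenetetrahydrofolate reductase, which supplies the methyl group for methionine synthase, had 6 of 6 tested unigenes called lower and summed FPKM of 452 in flower, against 2582 in rhizome_Y, 2095 in rhizome_O and 3205 in secRoot. Glycine hydroxymethyltransferase, which loads folate with the carbon of serine, had 3 of 4 called lower. Phosphoglycerate dehydrogenase, which opens serine synthesis, had 5 of 7 called lower and 1 higher. Counting each unigene once, 36 of 41 tested unigenes of these 7 enzymes were called lower in flower and 1 higher. Of the 36, 31 exceeded counting error against each library. Some, such as TR8273|c0_g1 and TR43348|c1_g3, reached the count minimum in secRoot alone, with 53 and 71 counts there, against 1 and 4 in flower. The 41 were chosen on these values, so their share called lower cannot be weighed against that of all tested unigenes. Their FPKM added up to 4903 in flower, against 24000 in rhizome_Y, 19570 in rhizome_O and 32450 in secRoot. Of the 41, 23 were shorter than 500 bp, so that several may be pieces of the same transcript. The longest unigene of each enzyme was called lower except that of phosphoglycerate dehydrogenase: TR63606|c0_g1 was the one called higher, with 33.4 in flower, against 9.32, 7.80 and 14.8.

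Phenylpropanoid entry, the route from phenylalanine to lignin precursors and flavonoids, was the list with the lowest median. Of 19 tested unigenes, 17 were called lower in flower and 1 higher, and the median log2 ratio of flower to the underground mean, with 1 FPKM added to both, was -1.92 (order-statistic 95% interval -3.53 to -1.65), beside -0.12 over all tested unigenes. Counting error was exceeded against each underground library for 14 of the 17. Cinnamate 4-hydroxylase, which commits cinnamate to this route, had 4 of 4 called lower, with a summed FPKM of 187 in flower, against 1700 in rhizome_Y, 1513 in rhizome_O and 2071 in secRoot. Phenylalanine ammonia-lyase, the first step, had 5 of 5 called lower but only 2 beyond counting error against each library, and its most abundant unigene TR52357|c2_g1 had 157 in flower, against 280, 313 and 891. Without secRoot, where this list was highest, its median was -1.50.

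Caffeoyl-CoA O-methyltransferase, which methylates monolignol precursors with S-adenosylmethionine, had 5 of 6 tested unigenes called lower. TR41783|c0_g1 had FPKM 193 in flower, against 723 in rhizome_Y, 967 in rhizome_O and 1538 in secRoot. TR56779|c1_g2 had 1 count, against 31, 55 and 146 counts. TR21689|c0_g1 had no count in flower, against 13, 28 and 103 counts in rhizome_Y, rhizome_O and secRoot, at least 9.15-fold lower in flower. The exception was TR64291|c1_g1, with 40.6 in flower, against 15.4, 6.63 and 1.95, 5.09-fold above their mean. The enzyme thus had unigenes with both patterns, the abundant ones being those of the underground tissues. Catechol oxidase (TR62868|c0_g2), a browning enzyme that oxidizes phenolics, had 0.43 in flower from 2 counts, against 140, 42.8 and 138 in rhizome_Y, rhizome_O and secRoot. Reticuline oxidase (TR58483|c4_g1), a name that such annotation gives to a broad family of flavin oxidases, had 1.55 in flower, against 44.8, 85.1 and 102.

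**Figure D4:**
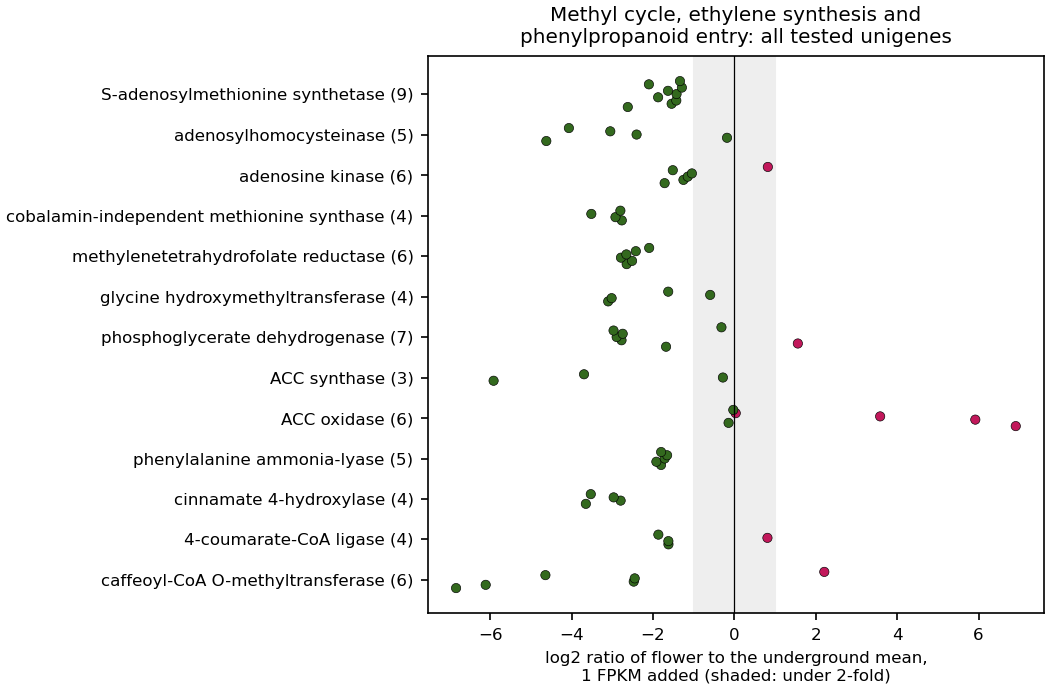
log2 ratio of flower to the underground mean, 1 FPKM added, for each tested unigene of 7 enzymes of the methyl cycle and serine supply, 2 of ethylene synthesis and 4 of phenylpropanoid entry; numbers in brackets count unigenes, and the shaded band is under 2-fold. Green points lie below 0 and pink ones above. Most points lie left of the band, 3 of the 6 ACC oxidase points lie far to the right, and 1 caffeoyl-CoA O-methyltransferase and 1 phosphoglycerate dehydrogenase unigene lie right of it.

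In the pectin list, whose enzymes trim and cut the gel-like matrix of the wall, 7 of 14 tested unigenes were called higher in flower and 1 lower, all beyond counting error against each library, with a median log2 ratio of 2.42 (-0.78 to 5.11). The 7 called higher reached the count minimum in flower alone, so the shares called higher here depend on that filter. Pectate lyase had 5 of 6 called higher: TR61278|c0_g1 had FPKM 157 in flower, against 1.86 in rhizome_Y, 1.56 in rhizome_O and 12.2 in secRoot. TR52885|c0_g1 had 42.0 in flower from 148 counts, against 0, 0.60 and 0.14 from 0, 3 and 1 counts, a 70.0-fold difference from rhizome_O (23.5 to 343). Some of these unigenes were near 0 in every underground library, and the part of the flower they come from was not tested. TR62099|c0_g1 had 73 counts in flower, against 2, 0 and 0 in rhizome_Y, rhizome_O and secRoot. Pectin methylesterase, which removes methyl groups from pectin, had 2 of 6 called higher: TR56534|c0_g1 had 62.1 in flower, against 1.15, 1.93 and 0.44. Its most abundant tested unigene, TR54178|c0_g1, was not called, with 82.5 in flower, against 202, 80.7 and 56.4.

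In the list for cellulose and callose, 8 of 10 tested unigenes were called lower in flower and 1 higher. The 10 were 5 cellulose synthases, 4 endo-beta-glucanases that act on callose-type glucans, and 1 cellulase. No callose synthase unigene reached the count minimum, and the summed FPKM of those its row lists was 130 in flower, against 103 in rhizome_Y, 73.8 in rhizome_O and 48.5 in secRoot. Cellulase sums also lay on that side, with 133 in flower, against 51.4, 40.9 and 55.5. The tested unigenes had a median log2 ratio of -1.70 (-2.78 to -0.36), and 4 of the 8 called lower exceeded counting error against each library. Cellulose synthase had 5 of 5 called lower, 3 of them beyond counting error, and TR6606|c0_g1 had FPKM 19.5 in flower, against 178 in rhizome_Y, 43.8 in rhizome_O and 359 in secRoot. TR68313|c1_g1, with more counts, had 50.1 in flower, against 228, 130 and 223. The median turned with the filter on low counts: over all unigenes listed with 1 or more counts, the median of this list was 0.50. The enzymes that make sugar nucleotides for the wall matrix had 10 of 20 tested unigenes called lower and 1 higher. UDP-glucose dehydrogenase, which opens the route to pectin and xylan sugars, had 4 of 6 called lower, and TR58732|c0_g1 had 96.9 in flower, against 456, 430 and 599. TR55473|c0_g1 of the same enzyme, the most abundant tested unigene of the list, was not called. It had 588 in flower, against 1268, 1040 and 519 in rhizome_Y, rhizome_O and secRoot. The unigene called higher, a UDP-glucuronate epimerase (TR68322|c0_g2), had 67.0 in flower, against 13.3, 11.5 and 22.7.

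Beta-amylase unigenes were among those farthest below the underground mean, and their rhizome values were far above those of secRoot. Beta-amylase, which releases maltose from starch, had FPKM 4.91 in flower for TR60064|c0_g1, against 699 in rhizome_Y, 1147 in rhizome_O and 14.5 in secRoot. Flower was 126-fold below the underground mean, but only 2.96-fold below secRoot (1.89 to 4.82). TR35404|c0_g1 had 7.02 in flower, against 1080, 1797 and 25.9 in the same order. It was 3.68-fold below secRoot (1.30 to 14.4), from 4 counts in flower. Another beta-amylase, TR68381|c0_g1, ran the other way with 32.6 in flower, against 10.8, 13.6 and 13.7.

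Starch branching enzyme, which adds branch points to amylopectin, had 2 of 3 tested unigenes called lower and 1 higher. TR68986|c0_g1 had FPKM 20.1 in flower, against 565 in rhizome_Y, 516 in rhizome_O and 94.8 in secRoot, while TR67632|c0_g2 had 75.1, against 27.1, 28.5 and 2.92. TR68986|c3_g1 had 3.28 in flower, against 309, 259 and 72.5, 65.0-fold below their mean. ADP-glucose pyrophosphorylase, the first committed step of starch synthesis, had 2 of 5 called higher, and TR53432|c0_g1 had 213 in flower, against 110, 129 and 37.1. Disproportionating enzyme (TR67513|c0_g2), which passes maltose glucose on to other glucans, had 158 in flower, against 11.5, 13.7 and 5.99, 15.2-fold above their mean. In both starch lists 3 of 10 were called higher and 2 lower, and in starch synthesis the median of 0.72 and the sums, 607 in flower against 1174, 1270 and 375 in rhizome_Y, rhizome_O and secRoot, pointed to different sides.

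Sucrose synthesis was higher in flower. Sucrose-phosphate synthase, the controlling step, had 2 of 2 tested unigenes called higher, and TR66176|c0_g1 had FPKM 146 in flower, against 39.0 in rhizome_Y, 30.4 in rhizome_O and 20.5 in secRoot. Sucrose-phosphate phosphatase (TR61008|c0_g2), which completes the molecule, had 147 in flower, against 50.4, 50.7 and 35.7. Sucrose synthase, which cleaves it, had 0 of 4 called, and TR65577|c2_g1 had 407 in flower, against 820, 470 and 351. Over the whole list, 4 of 11 were called higher (36.4%) and 2 lower (18.2%), beside 12.9% and 18.0% over all tested unigenes. Trehalose-phosphatase, which converts the signal sugar trehalose phosphate into trehalose, had 2 of 5 called lower, and TR62452|c0_g1 had 14.0 in flower, against 358, 57.4 and 152. In the raffinose list, TR59104|c1_g1, annotated as alpha-galactosidase and raffinose synthase, had 144 in flower, against 39.2, 39.4 and 60.1, while galactinol synthase (TR49119|c0_g1) had 8.10, against 16.5, 50.7 and 47.5.

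Pyruvate decarboxylase, which opens alcoholic fermentation, was lower in flower in 5 of 6 tested unigenes. TR63128|c3_g1 had FPKM 67.4 in flower, against 1242 in rhizome_Y, 971 in rhizome_O and 854 in secRoot, 12.7-fold below secRoot, the nearest library (11.4 to 14.1). TR9825|c0_g1 had 13.6 in flower, against 462, 355 and 228. Alcohol dehydrogenase, the next step, did not share this pattern: 2 of 4 tested unigenes were called higher in flower, and TR56606|c0_g2 had 71.8, against 34.5, 31.9 and 23.8. TR48588|c1_g1 had 287 in flower, against 345, 322 and 284. TR33382|c1_g1, which is also annotated as UDP-glucose dehydrogenase, had 281 in flower, against 625, 459 and 217, and was not called. The fermentation list as a whole held 5 of 11 lower (45.5%) and 2 higher (18.2%), beside 18.0% and 12.9% over all tested unigenes.

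Enzymes of photosynthesis were taken as markers of green tissue. Of 7 tested unigenes, 4 were called higher in flower (57.1%, beside 12.9% over all tested unigenes) and 1 lower (14.3%, beside 18.0%). Summed FPKM was 1209 in flower, against 194 in rhizome_Y, 238 in rhizome_O and 134 in secRoot. Most of the flower sum was the ribulose-bisphosphate carboxylase unigene given above. TR51335|c0_g1, called higher, reached the count minimum in flower alone, with 57 counts, against 0, 3 and 2. So did the phosphoribulokinase, with 50 counts, against 28, 7 and 3. The unigene called lower reached it below ground alone. The shares thus depend on that filter. Phosphoribulokinase (TR57914|c0_g1) of the Calvin cycle had 26.7 in flower, against 11.4, 2.38 and 0.55, and plastoquinol-plastocyanin reductase (TR39996|c0_g1) of the thylakoid had 66.0, against 26.8, 25.5 and 5.69. A ferredoxin-NADP+ reductase, which hands electrons to NADP+, went the other way: TR44457|c0_g1 had 19.0 in flower, against 37.1, 62.9 and 41.5, within counting error of rhizome_Y. Thus unigenes annotated as photosynthesis enzymes were measured in flower, and mostly at lower levels below ground.

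In chlorophyll and tetrapyrrole synthesis 7 of 22 tested unigenes were called higher in flower (31.8%) and 2 lower (9.09%), beside 12.9% and 18.0% over all tested unigenes. The median log2 ratio was 0.37 (0.15 to 1.70). Several of those called higher reached the count minimum in flower alone. Among them were TR38661|c0_g1 with 151 counts, against 2, 5 and 1, and TR60452|c0_g1 with 113, against 11, 16 and 13. TR69442|c0_g1, called lower, reached it below ground alone. The shares and the median thus depend on that filter. Magnesium chelatase (TR32855|c0_g1), which puts magnesium into the ring, had FPKM 635 in flower, against 145 in rhizome_Y, 150 in rhizome_O and 113 in secRoot. Protochlorophyllide reductase had 3 unigenes higher and 2 lower. TR60452|c0_g1 had 62.8 in flower, against 5.17, 7.83 and 4.4, but TR65098|c1_g1 had 468, against 1073, 1824 and 1953, and TR69442|c0_g1 had 27.6, against 325, 446 and 1103. Because of these last unigenes, the summed FPKM of the list was 2050 in flower, against 2078, 2864 and 3653, on the other side of the median. The row of this enzyme lists 98 contigs, of which 22 could be read.

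In photorespiration, the salvage of a by-product of carbon fixation, 3 of 19 were called higher and 3 lower (15.8% each). These shares were near the 12.9% and 18.0% over all tested unigenes. Serine-glyoxylate transaminase (TR58654|c0_g1), a peroxisomal step, had FPKM 80.8 in flower, against 6.29 in rhizome_Y, 7.83 in rhizome_O and 7.96 in secRoot, 10.98-fold above their mean and 5.63-fold with its most abundant contig alone. Alanine-glyoxylate transaminase (TR64388|c0_g3) had 69.3 in flower, against 16.0, 13.6 and 14.0. The 3 called lower were all glycine hydroxymethyltransferases, which also belong to the methyl cycle set; the most abundant, TR32126|c0_g1, had 133, against 1434, 765 and 1254.

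Among oxylipin enzymes, which turn membrane lipids into jasmonates, 3 of 15 tested unigenes were called higher in flower and 2 lower. Lipoxygenase (TR64549|c1_g4), which oxidizes linolenic acid, had FPKM 1268 in flower, against 89.1 in rhizome_Y, 53.6 in rhizome_O and 21.8 in secRoot, a 23.1-fold difference from their mean and 60.0-fold with its most abundant contig alone. Allene oxide synthase (TR59455|c1_g1), the step after it, had 137 in flower, against 54.3, 21.97 and 22.8. Allene oxide cyclase (TR47188|c0_g1), the step after that, had 92.5 in flower, against 496, 336 and 768. Successive steps of 1 route thus lay on different sides.

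Of 12 tested unigenes for sesquiterpenes and the mevalonate route to triterpenes, 5 were called lower in flower (41.7%) and 2 higher (16.7%). Over all tested unigenes these shares were 18.0% and 12.9%. Acetyl-CoA acetyltransferase had 4 of 6 lower and 1 higher, and hydroxymethylglutaryl-CoA synthase (TR51183|c0_g1) was 4.12-fold below the underground mean. A sesquiterpene synthase, TR65397|c2_g1, was called higher, with FPKM 128 in flower, against 112 in rhizome_Y, 45.7 in rhizome_O and 31.8 in secRoot, but its interval against rhizome_Y was 0.96 to 1.36. With its most abundant contig alone its ratio was 0.53, so the direction turned.

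Nitrogen assimilation had 7 of 27 tested unigenes called lower in flower (25.9%) and 1 higher (3.70%), beside 18.0% and 12.9% over all tested unigenes. Nitrite reductase (TR57882|c0_g1), which makes ammonium in plastids, had FPKM 7.76 in flower, against 58.9 in rhizome_Y, 113 in rhizome_O and 45.1 in secRoot. TR67355|c2_g1, the most abundant nitrate reductase unigene, was not called, with 358 in flower, against 440, 635 and 611. In sulfate assimilation 3 of 11 were lower (27.3%) and 1 higher (9.09%), and adenylyl-sulfate reductase (TR63468|c0_g2) had 12.2 in flower, against 32.2, 70.3 and 104. The list's most abundant tested unigene, an ATP sulfurylase (TR67294|c7_g3), was not called, with 1733 in flower, against 2427, 2043 and 2274. Among glutathione and peroxide enzymes 3 of 17 were called higher (17.65%) and 2 lower (11.76%). Glutathione transferase TR67559|c3_g5 had 1661 in flower, against 401, 551 and 687. Glutathione peroxidase unigenes went both ways. TR52802|c1_g2 had 715 in flower, against 1563, 1062 and 2069, and TR43144|c1_g1 had 125, against 85.3, 24.6 and 38.8. Catalase (TR55497|c2_g1), which removes hydrogen peroxide, had 1199 in flower, against 819, 788 and 228, and missed the 2-fold limit at 1.96-fold. Of phosphatidylinositol kinases and related enzymes 2 of 8 were called lower, neither beyond counting error against each library, and of 4 DNA synthesis unigenes, taken as markers of dividing tissue, 1 was called lower (a DNA polymerase with 2 counts in flower).

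Some housekeeping routes differed little. None of the 34 tested aminoacyl-tRNA ligase unigenes was called in either direction, with a median log2 ratio of 0.04 (-0.06 to 0.22) and sums of 1736 in flower, against 1643 in rhizome_Y, 1793 in rhizome_O and 1533 in secRoot. In the citrate cycle 1 of 23 was called lower, and in plastid fatty acid synthesis 2 of 20; none was called higher in these 2 lists. Of 8 polyamine unigenes 0 were called. These values show that a share of unigenes far below the background of 12.9% and 18.0% also occurred in lists of this size.

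**Figure D5:**
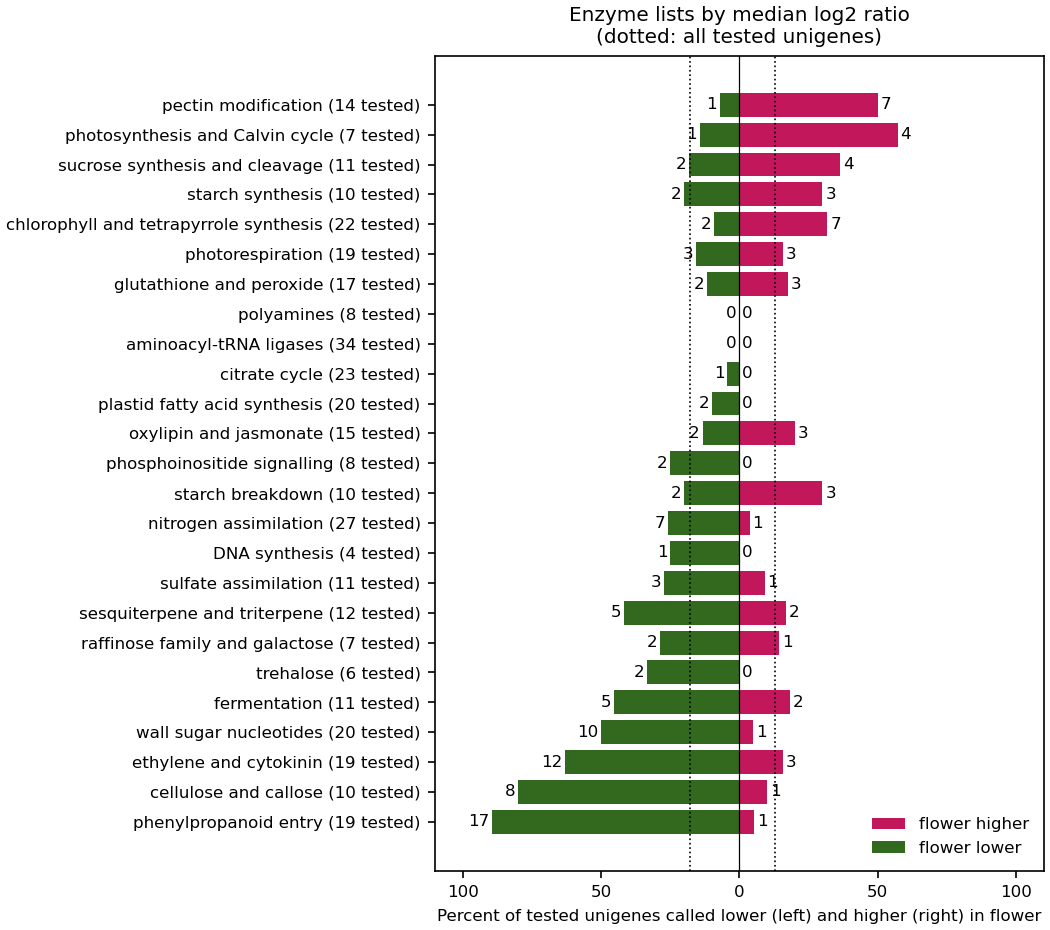
Percent of the tested unigenes of each of 25 enzyme lists called lower (left, green) or higher (right, pink) in flower, with the number called beside each bar, ordered by median log2 ratio; dotted lines are the percents over all tested unigenes (18.0% lower, 12.9% higher). Phenylpropanoid entry (17 of 19) and cellulose and callose (8 of 10) stand at the bottom with most unigenes lower, and pectin modification (7 of 14) at the top.

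Of single enzymes, only 3 had at least 8 tested unigenes. Besides S-adenosylmethionine synthetase (0 higher, 9 lower), fatty acid desaturases annotated as delta-12 fatty acid dehydrogenase had 2 of 9 higher and 4 of 9 lower, and quinol-cytochrome-c reductase had 1 and 1 of 9. The one called higher is TR39996|c0_g1, which is also annotated as plastoquinol-plastocyanin reductase and stands in the photosynthesis list. With a minimum of 4, chosen after the data were seen, 105 enzymes could be compared. Of these, 9 had all tested unigenes called lower in flower and 0 had all called higher, and in 4 of the 9 every one was also beyond counting error. The 9 are S-adenosylmethionine synthetase, methylenetetrahydrofolate reductase, cellulose synthase, the ammonia-lyases acting on phenylalanine (2 entries that share their unigenes), oxalate-CoA ligase, cinnamate 4-hydroxylase and methionine synthase (2 entries). More than 50% of the unigenes were called higher only for pectate lyase, whose 5 called higher reached the count minimum in flower alone. Of the 105, 21 had calls in both directions.

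Few unigenes were counted on 1 side only. With at least 50 counts in flower and 0 in every underground library there were 14, none with an enzyme row. With at least 50 counts in each underground library and 0 in flower there were 17, of which the ACC synthase TR52976|c0_g1 alone has an enzyme row. Without an enzyme row, TR59295|c1_g1 had FPKM 325 in flower (124 counts), at least 60.1-fold higher than underground, where it had no count. TR44230|c0_g1 had 3936 in flower, against 7.71, 30.2 and 6.42 in rhizome_Y, rhizome_O and secRoot. Among those lower in flower, TR59767|c0_g1 had 0, against 360, 894 and 1270, at least 88.8-fold lower, and TR57621|c3_g3 had 0, against 367, 989 and 1537, at least 64.2-fold lower. These 4 were ranked with 1 FPKM added, so that other unnamed unigenes can have wider bounds.

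Near the limits the calls rest on small differences. Just inside the 2-fold limit, TR67433|c0_g1 had FPKM 54.7 in flower, against an underground mean of 27.3, and just outside it TR61227|c0_g1 had 111.0 in flower, against a mean of 55.48. On the lower side TR42273|c0_g1, annotated as citrate synthase and succinyl-CoA ligase, had 25.7 in flower, against a mean of 51.7, and TR2490|c0_g2, an isocitrate dehydrogenase, missed the call with 103 in flower, against 204. For the count minimum, 139 unigenes had a highest count of exactly 50 and 142 had 49.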

How the data were processed

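Of 5 tissues of 1 plant, each sequenced as 1 library, flower and the 3 underground ones were compared. Trimming was done with Trimmomatic, 1 joint assembly with Trinity 2.0.6, alignment with Bowtie 2.0 and quantification with RSEM. For Trimmomatic and RSEM the version is not given in the sources used here. Deposited expected counts are fragments assigned to each contig by the authors' RSEM run, and all were whole numbers, so that rounding changed none. The deposited FPKM are those counts per length and library depth, and the deposited TPM are scaled by the authors to an equal sum per library. Values were taken from the files of the single libraries, and 5 columns of a table of the series were not used.

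Counts and FPKM were summed over the contigs of a unigene. Since each tissue has 1 library, nothing was tested. Intervals of count ratios are exact conditional 95% intervals scaled to the FPKM ratio, and a count of 0 was taken to allow 3 counts per library, which is FPKM 1.25 for flower, 1.06 for rhizome_Y, 0.887 for rhizome_O and 0.610 for secRoot at an effective length of 1000 bp. Ratios in the text have nothing added; list medians used log2 ratios with 1 FPKM added. Enzyme names come from 754 enzymes of the study's annotation table, 481 of them with a complete list of contigs. Named were, with an enzyme row and at least 100 counts on the high side, the 10 largest and 10 smallest ratios with 1 FPKM added. Per list, the rule took the most abundant tested unigene and up to 2 called in each direction, and not all of these are given in the text. Without an enzyme row, at most 2 unigenes per direction were named. Unigenes and enzymes outside this rule (the methyl cycle set apart from S-adenosylmethionine synthetase, phosphoribulokinase, plastoquinol-plastocyanin reductase, some starch, catalase and alcohol dehydrogenase unigenes, callose synthase and cellulase sums, and those at the limits) were chosen after their values were seen. The same holds for some photosynthesis and chlorophyll unigenes. The comparison and the lists were chosen with earlier results of these data known.

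Alternatives were other count minimums, TPM, TMM factors (edgeR 4.0.16 in R 4.3.3), median-of-ratios factors, counts per library total, thinned counts, pooled underground counts, the most abundant contig, leaving out each underground library, other fold limits and 0.1 FPKM added. Scripts (Python 3.11.15, numpy 2.4.6, pandas 2.3.3, scipy 1.17.1, matplotlib 3.10.9) were tested on simulated data. No reference genome was used, and no sequence is given.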

Additional observations from a re-analysis of the deposited data

Results flagged for a closer look

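The leaf library was outside the comparison. Of the 1815 unigenes called higher in flower, 380 had more than 3 counts in leaf, the most that a count of 0 allows, and 14 had a higher FPKM in leaf than in flower. Of the 2543 called lower in flower, 219 had more than 3 counts in leaf. For the 39 unigenes with at least 1000 counts in flower and at least 20-fold above the underground mean, the leaf count was a median 0.911% of the flower count, with a range of 0.468% to 1.89%. The part of these counts in the comparison was not tested.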

How the results depend on the processing

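The numbers called moved most with the count minimum: 3270 higher and 3839 lower with 20 counts, 1125 higher and 1808 lower with 100 counts, and 19744 higher and 12210 lower without a filter, where most ratios rest on few counts. At 4-fold they were 861 and 1191. Under TPM, TMM, median-of-ratios, counts per library total, thinned counts, pooled counts, the most abundant contig and leaving out each underground library, higher calls were between 1609 and 1975 and lower calls between 2337 and 2893. All of these settings kept the 14112 unigenes chosen on the full counts, so the effect of library depth on the count minimum was not tested. Higher calls were 41.6% of all calls, and 61.8% without a filter. The median log2 ratio of all tested unigenes was -0.12, and -0.05 with TMM and -0.23 with median-of-ratios. On 1 side only, 58 unigenes (flower) and 54 (underground) were counted with 20 counts, against 14 and 17. With a minimum of 4 tested unigenes, a limit chosen after the data were seen, 105 enzymes could be compared and not 3. S-adenosylmethionine synthetase unigenes called lower (7 to 9) and the number of lists with a median below 0 stayed within 1.5 times under all alternatives run. The median of cellulose and callose turned to 0.50 without a filter, and the ratio of TR65397|c2_g1 turned to 0.53 with its most abundant contig; the causes were not tested. Of 336 values of list medians under alternatives, 331 lay within the interval of the reported value (24 lists), while DNA synthesis, with 4 unigenes and no interval, ran between -0.64 and 0.01, and of 395 values of named ratios 358 did. Some list intervals are so wide that staying within them shows little. That of photosynthesis, -1.27 to 6.11, spans its lowest to its highest unigene, and that of starch breakdown is -6.72 to 1.30. TR59295|c1_g1, with no underground count, has no ratio. No paired analysis was possible because there is 1 library per tissue. Depth limits low values most in flower, the smallest library.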
